A study of Mus musculus with 6 samples.

Results

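Elastic fibres let the lung recoil after each breath, and the transcripts of 10 genes that build them were described in mouse lung at postnatal day 21 (P21). The genes were taken by symbol: Eln, Fbn1, Mfap4, Mfap5, Lox, Loxl1, Loxl2, Fbln5, Ltbp4 and Emilin1. They are 10 of 56884 genes listed in the files, of which 25285 had at least 20 unique molecular identifiers (UMIs, each marking 1 captured transcript molecule) in a lung library.

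An elastic fibre has a core of cross-linked elastin within a mantle of fibrillin microfibrils. Cells secrete soluble tropoelastin, which gathers on the microfibrils with the help of fibulins and latent TGF-beta binding proteins, and lysyl oxidases then link the molecules into an insoluble network. In the postnatal lung, elastin laid down by alveolar myofibroblasts marks the tips of the septa that divide the airspaces, and elastin is also a main component of the walls of vessels and airways.

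The study asked how pericyte-derived growth factors act on lung and brain morphogenesis. Lung cells were profiled on the BD Rhapsody whole-transcriptome platform, which reads the 3' ends of transcripts, in 4 libraries: Bdnf lox/lox, Bdnf iPCKO, Hgf lox/lox and Hgf iPCKO. Each library pooled the cells of 2 mice of 1 genotype after depletion of CD45+ blood cells and Ter119+ red cells. The remaining 2 of the 6 libraries, from cortex of Nodal mice, were not used here. In the iPCKO mice, tamoxifen given daily at 50 µg from P1 to P3 activated a CreERT2 recombinase driven by a Pdgfrb BAC transgene, which recombined the floxed Bdnf or Hgf alleles. The lox/lox controls received the same tamoxifen and carried the same floxed alleles but no CreERT2 transgene, so that deletion and transgene cannot be told apart within a pair. Mice of either sex entered the study, and sex is not given per library. Because each genotype has 1 library, no value has a replicate, no test between genotypes was possible, and all intervals below are 95% intervals for counting error only.

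The 4 libraries held between 69403166 and 186701379 UMIs, and between 14623 and 24311 barcodes passed the minimum of 1500 UMIs in the Bdnf files or 700 UMIs in the Hgf files. Their median depth was 7118, 5056, 3911 and 2841 UMIs per barcode in Bdnf lox/lox, Bdnf iPCKO, Hgf lox/lox and Hgf iPCKO, the order kept for every series of 4 values that follows. Any pair of libraries shared 254 to 457 barcode sequences, close to the 259 to 457 that independent draws give. The deleted genes were sparse in pericyte-like cells. Hgf had 132 CPM (the UMIs of a gene divided by all UMIs of those cells, times 1e6; 23 UMIs) in Hgf lox/lox and 32.8 CPM (10 UMIs) in Hgf iPCKO, and their intervals of 83.4 to 197 and 15.7 to 60.4 CPM did not overlap. Bdnf had 19.6 CPM (8 UMIs) in Bdnf lox/lox and 8.85 CPM (3 UMIs) in Bdnf iPCKO, a difference that was not detectable at this depth. In smooth muscle-like cells Bdnf had 71.4 CPM (50.0 to 98.8, 36 UMIs) in Bdnf lox/lox and 32.0 CPM (22.3 to 44.5, 35 UMIs) in Bdnf iPCKO. Most Bdnf UMIs of the mesenchyme lay in myofibroblast-like cells, with 80.9 CPM in Bdnf lox/lox and 67.2 CPM in Bdnf iPCKO.

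Cells were assigned barcode by barcode from marker genes, none of them among the 10, and are called X-like throughout. Myofibroblast-like cells numbered 901, 1259, 84 and 318, matrix fibroblast-like cells 429, 229, 200 and 51, adventitial fibroblast-like cells 591, 830, 272 and 149, and smooth muscle-like cells 105, 219, 65 and 47. Leading markers were present in nearly every cell: Hhip in 90.6 to 99.4% of myofibroblast-like, Inmt in 98.0 to 100% of matrix fibroblast-like, Dpt in 90.6 to 98.6% of adventitial fibroblast-like and Acta2 in 95.7 to 100% of smooth muscle-like cells. Most other markers were seen in fewer cells of Hgf iPCKO than of Hgf lox/lox. Examples were Cdh4 (33.6 and 59.5% of myofibroblast-like), Tcf21 (58.8 and 82.5% of matrix fibroblast-like), Pi16 (39.6 and 76.8% of adventitial fibroblast-like) and Des (27.7 and 64.6% of smooth muscle-like cells). Some markers were nearly absent in Hgf iPCKO, where Fgf18 was seen in 1.57% of myofibroblast-like cells (28.6% in Hgf lox/lox). Slc7a10 was seen there in 1.96% of matrix fibroblast-like cells (25.5%) and Kcnmb1 in 6.38% of smooth muscle-like cells (43.1%). A few markers went the other way. Tgfbi was seen in 76.7% of myofibroblast-like cells of Hgf iPCKO (63.1% in Hgf lox/lox), and Aspn was also seen in more of them. Npnt was seen in 100% of matrix fibroblast-like (93.5%), Igfbp6 in 81.9% of adventitial fibroblast-like (80.1%) and Lmod1 in 91.5% of smooth muscle-like cells (89.2%). All these marker shares were taken at the full depth of the cells, which was lower in the Hgf mutant. Summed markers of immune cells stayed between 0 and 7.93 CPM in the 4 types.

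Cluster and depth stand beside every ratio of the Hgf pair. In the 3 fibroblast types, most cells of Hgf lox/lox and Hgf iPCKO lay in different Leiden clusters, although the 10 genes were left out of the clustering. All 84 myofibroblast-like cells of the control fell in cluster 7 and 317 of the 318 mutant cells in cluster 0. Likewise 196 of 200 matrix fibroblast-like control cells were in cluster 1 and 47 of 51 mutant cells in cluster 5, and 243 of 272 adventitial fibroblast-like control cells were in cluster 3 and 144 of 149 mutant cells in cluster 2. Smooth muscle-like cells shared cluster 8, with 54 of 65 control and 33 of 47 mutant cells. The mutant cells also carried fewer UMIs, with a median of 1717.5 against 2316 in myofibroblast-like, 1207 against 1782 in matrix fibroblast-like and 3447 against 6551 in adventitial fibroblast-like cells. Smooth muscle-like cells of this pair also held fewer UMIs each in the mutant, with 167997 in 65 control and 92181 in 47 mutant cells. In the Bdnf pair the mutant fibroblast-like cells also held fewer UMIs each. Control and mutant had 3549153 UMIs in 901 and 3910785 in 1259 myofibroblast-like cells. Matrix fibroblast-like cells had 1823491 in 429 and 768303 in 229, and adventitial fibroblast-like cells 7000620 in 591 and 6216661 in 830. Smooth muscle-like cells, with 504402 in 105 and 1092638 in 219, did not show this. The part of cluster and of depth in the ratios was not tested.

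A ratio is called higher or lower here when it passed 1.5-fold with at least 20 UMIs in the pair. In myofibroblast-like cells of the Bdnf pair, 3 of 10 members were higher in the mutant and 1 was lower, where 8.21% and 7.34% of all genes passed in those directions. Matrix fibroblast-like cells of that pair had 0 members higher and 3 of 10 lower, against 12.3% and 12.1% of all genes. No member of 10 passed in adventitial fibroblast-like cells, where 11.3% of all genes were higher and 5.0% lower, and none of 10 passed in smooth muscle-like cells, where the shares were 11.7% and 13.4%. The median log2 ratio of the members was 0.27, -0.11, -0.01 and 0.01 in these types in the order given, against 0.0, 0.04, 0.07 and -0.03 over all genes.

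The Hgf pair lay further apart over all genes. Of the 9 members with enough UMIs in myofibroblast-like cells, 3 were higher and 4 lower in Hgf iPCKO, where 26.2% of all genes were higher and 18.1% lower. Matrix fibroblast-like cells had 1 of 10 higher and 5 lower, against 24.9% and 26.6%. Adventitial fibroblast-like cells had 1 of 10 higher and 6 lower, against 23.8% and 21.2%. In smooth muscle-like cells, 1 of 9 was higher and 4 were lower, against 25.9% and 21%. The higher member was Loxl2 (21 and 19 UMIs, 0.72 with -0.25 to 1.69), which reversed with Leiden clusters. The lower members included Mfap4, Mfap5 and Fbln5, with 17, 4 and 3 UMIs in the mutant. The median log2 ratio of the counted members was -0.28, -0.41, -0.78 and -0.55, and that of all genes 0.1, 0.01, 0.08 and 0.06. With median-of-ratios scaling in place of CPM, the Hgf ratios shifted by 0.07, -0.32, -0.25 and -0.22 in the 4 types, and 3, 1, 1 and 0 members were higher and 4, 5, 7 and 5 lower, against 29.5, 15.2, 14.6 and 17.7% of all genes higher and 15.5, 37.3, 29.5 and 29.2% lower. Lower members outnumbered higher ones in matrix fibroblast-like, adventitial fibroblast-like and smooth muscle-like cells of this pair under either scaling. With median-of-ratios scaling, lower genes also outnumbered higher ones over all genes in these types, by the shares just given. In myofibroblast-like cells the lower members included Fbln5 (10 and 15 UMIs, -0.94 with -2.19 to 0.37) and Loxl1 (35 and 45 UMIs). At a minimum of 100 UMIs 3 members were higher and 2 lower in these cells, where 26.8% of all genes were higher and 12.9% lower.

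**Figure D1:**
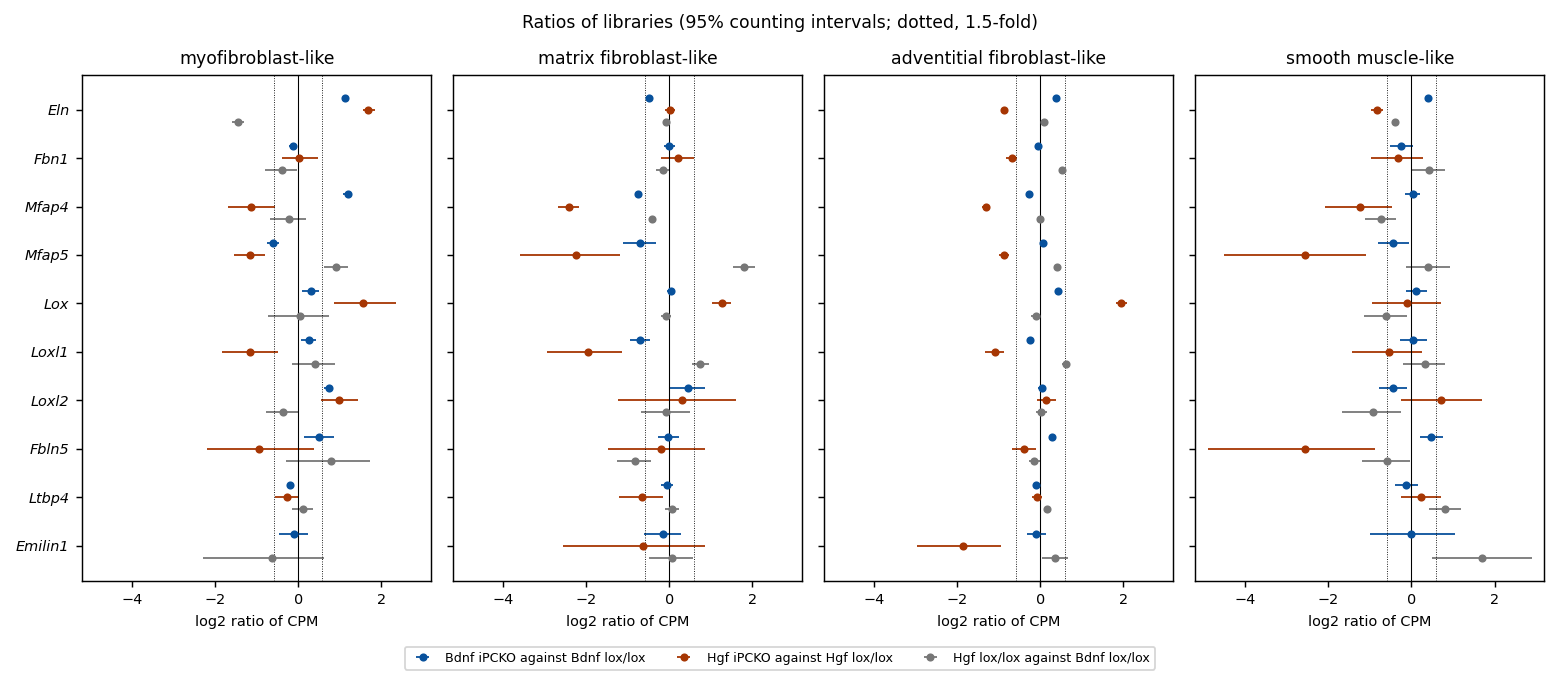
Log2 ratio of CPM for each of the 10 genes (vertical axis) in 4 mesenchymal cell types (panels), with bars for the 95% counting interval and dotted lines at 1.5-fold; genes under 20 UMIs in a comparison are left out. Blue points give Bdnf iPCKO over Bdnf lox/lox, brown points Hgf iPCKO over Hgf lox/lox and grey points Hgf lox/lox over Bdnf lox/lox. Eln in myofibroblast-like cells lies at 1.13 in the Bdnf pair and 1.69 in the Hgf pair, and at -1.45 between the controls.

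Eln encodes tropoelastin, the core protein of the fibre, and lies on chromosome 5 from 134731445 to 134776322 on the minus strand of GRCm39. Its level in myofibroblast-like cells was 6010, 13187, 2201 and 7103 CPM. Each mutant library lay above its own control, and the Hgf mutant lay above the Bdnf control as well. In both controls this level was below that of matrix fibroblast-like, adventitial fibroblast-like, smooth muscle-like and venous-like cells, as given further on. The smooth muscle marker Acta2 was 190 and 299 CPM in these cells of Bdnf lox/lox and Hgf lox/lox, against 9508 and 14304 CPM in smooth muscle-like cells. The log2 ratio was 1.13 (1.11 to 1.16) in the Bdnf pair, a 2.19-fold difference, and 1.69 (1.55 to 1.84) in the Hgf pair, 3.23-fold. In these cells of Hgf lox/lox and Hgf iPCKO the summed myofibroblast markers were 19939 and 11930 CPM (9 of 9 with a UMI in both), pericyte markers 423 and 118 CPM (5 of 8 in both), adventitial fibroblast markers 1378 and 825 CPM (4 of 8 in both) and AT1 markers 531 and 864 CPM (6 and 8 of 8). AT2 markers were 564 and 265 CPM, smooth muscle markers 781 and 452 CPM and pan-endothelial markers 101 and 190 CPM. The part of all these markers in the ratios of the members was not tested. The 2 controls differed by -1.45 (-1.59 to -1.31), Hgf lox/lox over Bdnf lox/lox, a 2.73-fold gap between libraries that both lack the transgene. That gap is larger than the difference within the Bdnf pair, and floxed allele, litter and library preparation cannot be told apart in it.

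Eln varied widely among the myofibroblast-like cells of each library. The median cell held 3851, 8162, 1749 and 5145 CPM of Eln. The interquartile range of the cells was 1829 to 7045 CPM in Bdnf lox/lox, 2826 to 17333 in Bdnf iPCKO, 726 to 2900 in Hgf lox/lox and 2219 to 9367 in Hgf iPCKO, so that the ranges of each pair overlapped. The 10% of cells with most Eln held 41.3, 38.5, 28.8 and 33.9% of its UMIs. With every cell thinned to 1241 UMIs, 91.1, 93.8, 81.7 and 92.7% of myofibroblast-like cells had an Eln UMI (98.9, 97.5, 91.7 and 95.6% unthinned). In AT2-like cells, which are surfactant-producing epithelium and serve as the background for RNA released from other cells, the share was 6.97, 11.6, 2.48 and 3.62% at 2293 UMIs (18.7, 21.8, 4.82 and 4.96% unthinned, at median depths of 8373, 5837, 4688 and 3562 UMIs). Thinning left out 0, 0, 2 and 32 myofibroblast-like and 90, 114, 282 and 365 AT2-like cells that were shallower than that.

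**Figure D2:**
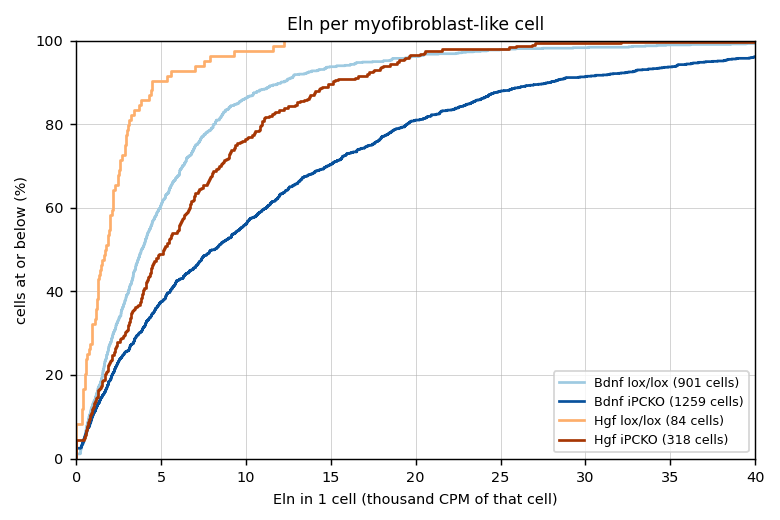
Share of myofibroblast-like cells (vertical axis, %) at or below a given Eln level in CPM of that cell (horizontal axis, in units of 1000), 1 curve per library with its number of cells. The curve of Bdnf iPCKO runs to the right of that of Bdnf lox/lox from the lower quartiles of 2826 and 1829 CPM to the upper quartiles of 17333 and 7045 CPM, and Hgf iPCKO runs to the right of Hgf lox/lox.

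The difference in the Bdnf pair was not the same in all clusters that the myofibroblast-like cells fell into. In cluster 0, with 324 control and 624 mutant cells, Eln was 8065 CPM in control cells and 18347 CPM in mutant cells (log2 1.19). In cluster 1, with 552 and 226 cells, it was 4980 and 12146 CPM (1.29). Both of these clusters had more Eln in the mutant. Cluster 2 held 25 control cells and 406 mutant cells, 2.77% and 32.2% of the myofibroblast-like cells of their libraries, and there Eln was lower in the mutant, 3868 CPM against 7118 CPM (-0.88). Without this cluster the ratio of the Bdnf pair was 1.47, a selection made after the values were seen. In the Hgf pair no such split could be made, because the control and mutant cells shared no cluster with enough cells of both.

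**Figure D3:**
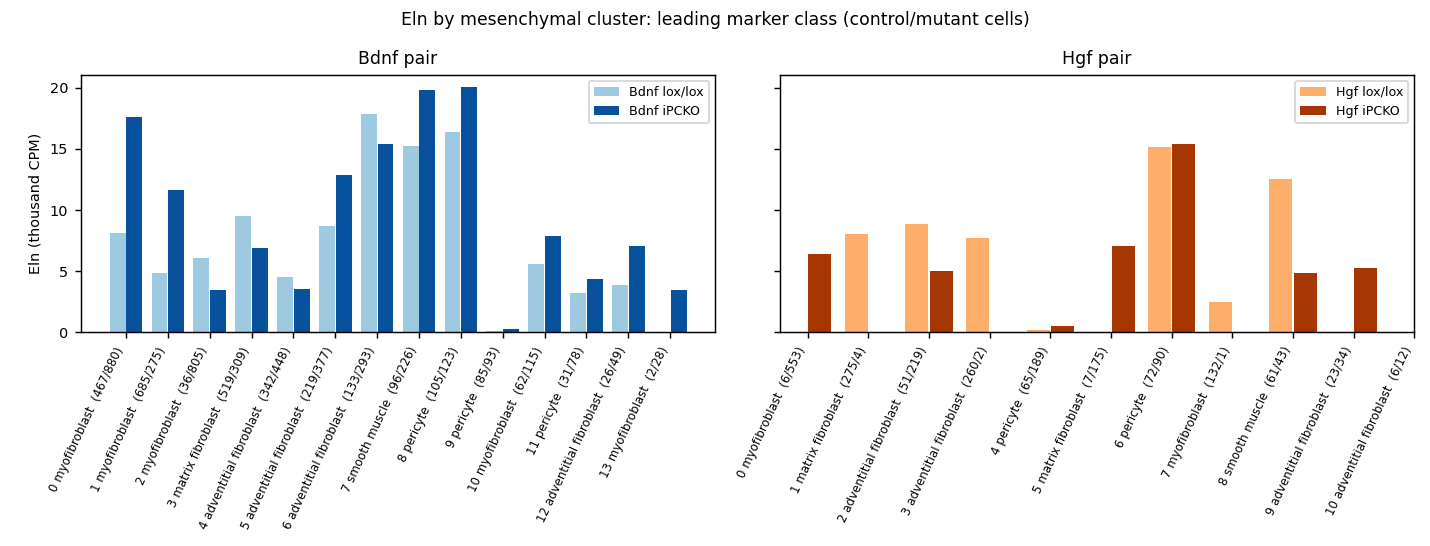
Eln in CPM (vertical axis, in units of 1000) for each mesenchymal Leiden cluster (horizontal axis, labelled with the marker class of highest level and the control and mutant cell numbers) of the Bdnf pair (left) and the Hgf pair (right). Bars are drawn for a library with at least 25 cells in the cluster. Several Hgf clusters have a bar for only 1 library, and the 2 highest bars of that pair belong to cluster 6, which carries pericyte and smooth muscle markers.

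Eln was highest in smooth muscle-like cells in 3 of the 4 libraries, at 14465, 19123, 11036 and 6238 CPM. The ratio was 0.40 in the Bdnf pair, under 1.5-fold, and -0.82 (-0.96 to -0.69) in the Hgf pair, where the mutant was lower. The median smooth muscle-like cell held 8430 CPM in Hgf lox/lox and 1538 CPM in Hgf iPCKO, and the 10% of cells with most Eln held 31.0 and 68.7% of its UMIs, so the mutant level rested on few of its 47 cells. Inside the shared cluster 8 the level was 11845 CPM in 54 control cells and 4799 CPM in 33 mutant cells. In the same Hgf cells the summed smooth muscle markers were 22346 CPM in Hgf lox/lox and 9492 CPM in Hgf iPCKO, against 16774 and 15693 CPM in the Bdnf pair. Pericyte markers were 1429 and 705 CPM, AT2 markers 667 and 250 CPM and myofibroblast markers 1482 and 2191 CPM in Hgf lox/lox and Hgf iPCKO. The part of these markers in the ratio was not tested. Matrix fibroblast-like cells, which are the lipid-bearing interstitial fibroblasts of the alveolus, had 9727, 6997, 9133 and 9280 CPM of Eln. The ratio was -0.48 in the Bdnf pair, under 1.5-fold, and 0.02 in the Hgf pair. The median cell of this type held 8178, 3895, 5854 and 7547 CPM, a wider gap than the summed levels in both pairs. Adventitial fibroblast-like cells, which surround vessels and airways, had 7521, 9711, 8070 and 4428 CPM, with a lower value in Hgf iPCKO (-0.87, -0.93 to -0.80). Summed matrix fibroblast markers in these cells were 1984 CPM in Hgf lox/lox and 3439 CPM in Hgf iPCKO and AT1 markers 338 and 713 CPM, with a UMI of 8 and 7 of 8 markers for either list, and their part in the adventitial ratios of Eln and of the members that follow was not tested. That value was also lower inside cluster 2, the only cluster with at least 25 adventitial fibroblast-like cells of each Hgf library, at 8816 CPM in 28 control cells and 4423 CPM in 144 mutant cells. The adventitial value of the Bdnf pair (0.37, under 1.5-fold) was not shared by its clusters, with -0.36 in cluster 4 (306 and 360 cells), 0.60 in cluster 5 (201 and 332 cells) and -0.12 in cluster 6 (82 and 132 cells). The median adventitial fibroblast-like cell held 4000 CPM in Bdnf lox/lox and 3495 CPM in Bdnf iPCKO. It held 3913 CPM in Hgf lox/lox and 2783 CPM in Hgf iPCKO, a smaller gap than that of the summed levels.

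Endothelial cells also held Eln. Venous-like cells had 7839, 8311, 4059 and 4233 CPM, and arterial-like cells 3374, 6681, 1606 and 1597 CPM. The arterial-like value was higher in Bdnf iPCKO than in its control (log2 0.99), while the Hgf pair differed by -0.01. The median arterial-like cell held 1025, 2500, 583 and 824 CPM of Eln. The 10% of these cells with most Eln held 60.5, 53.3, 60.1 and 43.4% of its UMIs, so the levels rested on few cells. General capillary-like cells (gCap) had 786, 812, 504 and 837 CPM and lymphatic-like cells 463, 581, 240 and 355 CPM. Barcodes without a cell, at 10 to 100 UMIs each, had 1194, 1310, 495 and 514 CPM. These levels in free RNA exceeded those of lymphatic-like cells in every library and those of general capillary-like cells in both Bdnf libraries.

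Pericyte-like cells were a mixture for Eln. Their level was 4653, 6850, 5172 and 2961 CPM over all 103, 113, 96 and 196 cells. In the cluster with both pericyte and smooth muscle markers it was 14275 and 23552 CPM in the Bdnf pair, from 30 and 27 cells. In the Hgf pair that cluster had 15275 and 16141 CPM, from 32 and 29 cells. The cluster with pericyte markers alone had 108 and 246 CPM in the Bdnf pair and 186 and 548 CPM in the Hgf pair, below the level of barcodes without a cell in 3 of the 4 libraries. The Eln-rich cluster made up 29.1, 23.9, 33.3 and 14.8% of pericyte-like cells, the smallest share in the library with the lowest level over all cells. The split was added after the values were seen.

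**Figure D4:**
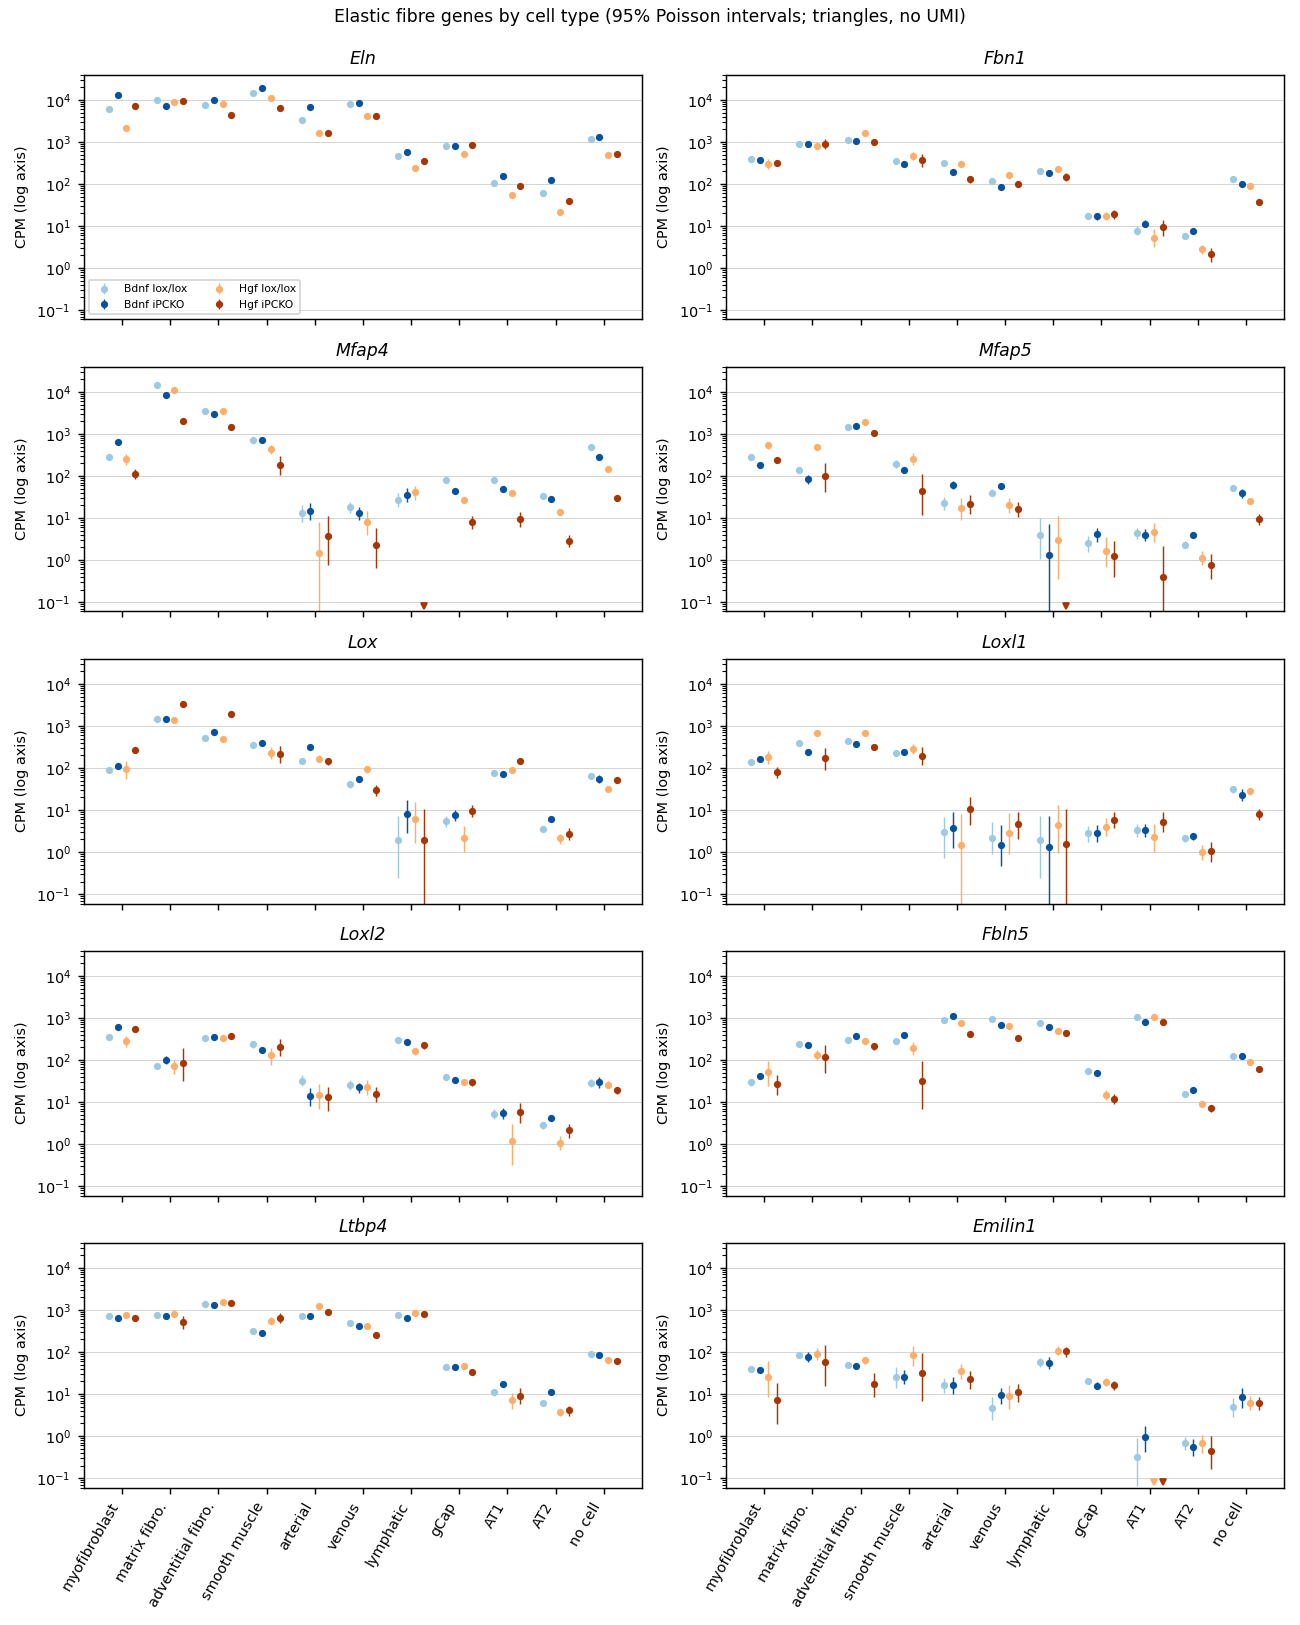
Level of each of the 10 genes in CPM (vertical log axis) by cell type (horizontal axis, the last position being barcodes without a cell) in the 4 libraries (colours), with bars for the exact 95% Poisson interval and triangles where no UMI was found. Most members peak in the 4 mesenchymal types at the left, whereas Fbln5 peaks in endothelial-like and AT1-like cells.

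Fbn1 encodes fibrillin-1, the main structural protein of microfibrils (chromosome 2, 125142514 to 125349913, minus strand, GRCm39). It was highest in adventitial fibroblast-like cells, with 1126, 1079, 1599 and 992 CPM, followed by matrix fibroblast-like cells with 871, 872, 781 and 899 CPM. The adventitial value was lower in Hgf iPCKO (-0.69, -0.82 to -0.56), while the Bdnf pair differed by -0.06. Over all cells of cluster 2 of the Hgf pair, assigned or not, the gap was smaller. Fbn1 there was 1286 CPM in 51 control and 1086 CPM in 219 mutant cells. In myofibroblast-like cells Fbn1 was 403, 370, 304 and 311 CPM, so that neither pair differed by 1.5-fold in the cells where Eln differed most. Arterial-like cells had 317, 197, 301 and 131 CPM, lower in both mutants (-0.69 and -1.21).

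The promoter of Fbn1 is printed with those of Fbln5 because these 2 members lie at the ends of the set in their likeness to Eln across cell types, as given further on. Sequences are from RefSeq on GRCm38.p6, another build than that of the gene positions, and run 5' to 3' on the minus strand from 250 bases before to 50 after the start. Capitals mark GGGCGG or its reverse complement CCGCCC, the core of the GC box bound by SP1-type factors, and CAGAC or GTCTG, the SMAD element. RefSeq gives 2 starts for Fbln5, which reads at the 3' end cannot tell apart.
Fbn1 chr2:125506389-125506688: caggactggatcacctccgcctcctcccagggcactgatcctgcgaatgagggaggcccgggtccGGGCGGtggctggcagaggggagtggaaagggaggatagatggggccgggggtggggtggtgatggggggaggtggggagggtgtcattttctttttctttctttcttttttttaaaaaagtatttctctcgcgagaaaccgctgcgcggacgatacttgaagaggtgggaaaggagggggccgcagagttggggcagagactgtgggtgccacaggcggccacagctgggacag
Fbln5 chr12:101818435-101818734: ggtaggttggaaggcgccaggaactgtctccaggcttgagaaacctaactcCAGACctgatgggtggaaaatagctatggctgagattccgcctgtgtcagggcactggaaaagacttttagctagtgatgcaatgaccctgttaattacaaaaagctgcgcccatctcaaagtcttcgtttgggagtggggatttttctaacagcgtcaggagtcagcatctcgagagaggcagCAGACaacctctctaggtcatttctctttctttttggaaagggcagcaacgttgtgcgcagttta
Fbln5 chr12:101819070-101819369: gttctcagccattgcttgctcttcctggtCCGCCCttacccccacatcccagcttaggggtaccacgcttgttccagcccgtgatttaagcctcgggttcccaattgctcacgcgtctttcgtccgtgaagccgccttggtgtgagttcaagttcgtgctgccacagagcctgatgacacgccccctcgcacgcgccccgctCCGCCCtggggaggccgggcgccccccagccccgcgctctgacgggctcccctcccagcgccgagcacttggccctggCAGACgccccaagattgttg
The Fbn1 window held 1 GC box and no SMAD element at 60.3% G and C. The window at 101818435 of Fbln5 held no GC box and 2 SMAD elements at 48.7% G and C, and that at 101819070 held 2 GC boxes and 1 SMAD element at 65.7%. Over 32851 promoters of the same length, 35.7% held a GC box core and 49.6% a SMAD element on either strand, and the median G and C content was 52.7%. A promoter entry was also found for Ltbp4, with 3 to 9 GC box cores in its 3 windows, and for Emilin1, with 2 SMAD elements. Eln, Mfap4, Mfap5, Lox, Loxl1 and Loxl2 were not matched.

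Mfap4 encodes a microfibril-associated glycoprotein that binds elastin and fibrillin-1 (chromosome 11, 61376212 to 61379727, plus strand, GRCm39), and it was among the 10 leading genes of matrix fibroblast-like cells. Its level there was 14423, 8501, 10836 and 2030 CPM. Both mutants lay below both controls. The log2 ratio was -0.76 (-0.80 to -0.72) in the Bdnf pair, 1.7-fold lower, and -2.42 (-2.67 to -2.17) in the Hgf pair, 5.34-fold lower, while the controls differed by -0.41. In these cells of Bdnf lox/lox and Bdnf iPCKO the summed matrix fibroblast markers were 16665 and 13202 CPM (8 of 8 in both), adventitial fibroblast markers 732 and 1061 CPM (6 and 8 of 8), myofibroblast markers 276 and 685 CPM (9 and 8 of 9) and smooth muscle markers 40.8 and 125 CPM (5 and 6 of 8). Cluster 6, which carries adventitial markers, held 1.4% of the control and 10.0% of the mutant cells. Inside cluster 3, with 422 and 204 cells, Mfap4 was still lower in the mutant, 14652 and 9262 CPM. In the matrix fibroblast-like cells of Hgf lox/lox and Hgf iPCKO the summed pan-endothelial markers were 150 and 276 CPM (8 and 5 of 8), AT2 markers 646 and 251 CPM (8 and 7 of 8) and pericyte markers 147 and 62.8 CPM (4 and 3 of 8). Cluster 5, with most of these mutant cells, had a relative marker level of 0.576 for matrix fibroblasts and of 0.306 for another lineage, and so got no cell type name. The part of these markers in the matrix fibroblast-like ratios of Mfap4 and the other members was not tested. At 759 UMIs per cell, 98.1, 81.2, 94.9 and 67.4% of matrix fibroblast-like cells had a UMI of Mfap4 (99.8, 90, 98.5 and 70.6% unthinned), with 0, 0, 3 and 5 shallower cells left out. In AT2-like cells the share at 2293 UMIs was 3.79, 3.14, 1.66 and 0.396% (8.89, 6.75, 2.80 and 0.657% unthinned), far below. Mfap4 in barcodes without a cell was highest in Bdnf lox/lox and lowest in Hgf iPCKO.

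Adventitial fibroblast-like cells had 3519, 2927, 3524 and 1427 CPM of Mfap4. The controls were alike here (0.00, -0.04 to 0.04), the Bdnf pair differed by -0.27, and the Hgf mutant was lower (-1.30, -1.41 to -1.20). Inside cluster 2, with 28 control and 144 mutant cells, the values were 4569 and 1450 CPM (-1.66). Myofibroblast-like cells had a lower level of 290, 660, 247 and 113 CPM, and the direction differed between the pairs, with 1.19 (1.08 to 1.29) in Bdnf and -1.14 (-1.70 to -0.56) in Hgf. The Hgf ratio came from 48 control and 63 mutant UMIs. The median myofibroblast-like cell held 0, 369, 0 and 0 CPM of Mfap4. Barcodes without a cell had 478, 279, 147 and 30.5 CPM, which exceeded the myofibroblast-like level in Bdnf lox/lox. In the Bdnf pair Mfap4 was higher in the mutant in cluster 0 (395 and 928 CPM) and cluster 1 (238 and 607 CPM) and lower in cluster 2 (340 and 152 CPM), as Eln was. Smooth muscle-like cells had 720, 735, 435 and 184 CPM.

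Mfap5 encodes MAGP-2, a small microfibril glycoprotein (chromosome 6, 122470878 to 122508875, plus strand, GRCm39), and was the member most concentrated in a single cell type. Adventitial fibroblast-like cells held 69.5, 62.2, 72.0 and 51.0% of its UMIs, and it was among their 10 leading genes. Its level there was 1441, 1512, 1905 and 1038 CPM, with ratios of 0.07 in the Bdnf pair, -0.88 (-1.0 to -0.75) in the Hgf pair and 0.40 between the controls. Within cluster 2 the Hgf values were 1136 and 1044 CPM, a ratio of -0.12 (-0.40 to 0.17), so the lower level in the mutant was not detectable among cells of the same cluster. In the Bdnf pair the ratio was -0.31 in cluster 4, 0.13 in cluster 5 and -0.51 in cluster 6, and 0.0 over all these cells with median-of-ratios scaling. In myofibroblast-like cells Mfap5 was 284, 187, 536 and 238 CPM, lower in both mutants (-0.61 and -1.17), with the controls 0.92 apart. Matrix fibroblast-like cells had 138, 84.6, 482 and 102 CPM, where the controls were 1.80 apart and the Hgf mutant value rested on 7 UMIs.

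Lox encodes lysyl oxidase, which starts the cross-linking of elastin and collagen (chromosome 18, 52649136 to 52663110, minus strand, GRCm39). In adventitial fibroblast-like cells it was 528, 704, 488 and 1884 CPM. The Hgf mutant stood apart from the other 3 libraries, which lay close together. The ratio was 1.95 (1.82 to 2.08) in the Hgf pair, 3.86-fold higher, against 0.42 in the Bdnf pair and -0.11 between the controls. At 1774 UMIs per cell, 52.1, 59.9, 47.7 and 94.8% of these cells had a Lox UMI (88.5, 84.6, 82.0 and 97.3% unthinned), with 0, 10, 12 and 15 shallower cells left out. The higher matrix fibroblast and AT1 marker sums of Hgf iPCKO, given with Eln, stand beside this ratio too. Inside cluster 2 the level was 349 CPM in control and 1952 CPM in mutant cells, 5.6-fold higher.

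The same direction held in other fibroblast-like cells of the Hgf pair. Matrix fibroblast-like cells, in which Lox was highest in every library, had 1436, 1490, 1361 and 3263 CPM. Hgf iPCKO was 2.4-fold higher than its control (1.26, 1.03 to 1.49), and the Bdnf pair differed by 0.05. Myofibroblast-like cells had 89.6, 110, 92.8 and 274 CPM, with 18 control and 153 mutant UMIs in the Hgf pair (1.56, 0.85 to 2.35). The Bdnf pair differed by 0.30 (0.09 to 0.51) in these cells, under 1.5-fold. In smooth muscle-like cells of the Hgf pair the ratio was -0.10, so Lox was not higher in all mesenchymal cells. Outside the mesenchyme, arterial-like cells had 146, 316, 166 and 146 CPM, higher in Bdnf iPCKO (1.12). The median arterial-like cell held 0 CPM of Lox in every library, and the 10% of cells with most Lox held 70.5, 55.3, 69.8 and 66.1% of its UMIs. Venous-like cells had 41.1, 55.5, 94.2 and 29.7 CPM of Lox, lower in Hgf iPCKO than in its control (-1.67, -2.17 to -1.18), the opposite direction to the fibroblast-like cells of that pair, with the controls 1.20 apart. AT1-like cells, the flat gas-exchange epithelium, had 77.1, 71.4, 92.1 and 147 CPM of Lox, against 3.57, 6.28, 2.12 and 2.72 CPM in AT2-like cells. At 1107 UMIs, 8.12, 6.24, 9.72 and 15.8% of AT1-like cells had a Lox UMI (33.9, 21.1, 24.9 and 26.8% unthinned, with 0, 0, 54 and 95 shallower cells left out), compared with 0.499, 0.86, 0.453 and 0.67% of AT2-like cells at 2293 UMIs (2.15, 2.3, 0.691 and 0.794% unthinned).

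Loxl1 encodes the lysyl oxidase that is targeted to elastic fibres and maintains them (chromosome 9, 58195014 to 58220495, minus strand, GRCm39). In the Hgf pair it was lower in the fibroblast-like cells in which Lox was higher. Adventitial fibroblast-like cells had 444, 375, 678 and 317 CPM (-0.24 in the Bdnf pair, -1.10 with -1.33 to -0.87 in the Hgf pair). Matrix fibroblast-like cells had 401, 246, 676 and 174 CPM, lower in both mutants (-0.70 and -1.96, the latter with 12 UMIs in the mutant). The Hgf control lay above the Bdnf control by 0.61 and 0.75 in these types, so the Hgf control was the highest of the 4 libraries in both. In myofibroblast-like cells the level was 137, 162, 180 and 80.5 CPM.

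Loxl2 encodes another lysyl oxidase, which acts on collagen IV and on elastin (chromosome 14, 69846209 to 69933283, plus strand, GRCm39). In myofibroblast-like cells it was higher in both mutants, with 357, 593, 276 and 550 CPM. Both mutants lay above both controls, at log2 ratios of 0.73 (0.63 to 0.83) and 0.98 (0.56 to 1.43), and the controls differed by -0.36. In the Bdnf pair the level was 453 and 767 CPM in cluster 0, 314 and 597 CPM in cluster 1 and 304 and 247 CPM in cluster 2, where the difference was not detectable (-0.32, -0.81 to 0.21). Adventitial fibroblast-like cells had 335, 343, 340 and 375 CPM, nearly constant over the libraries. Lymphatic-like cells had 291, 262, 163 and 223 CPM.

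Fbln5 encodes fibulin-5, which binds tropoelastin and cells and is needed for fibre assembly (chromosome 12, 101712556 to 101785429, minus strand, GRCm39). Its distribution differed from that of the other members. AT1-like cells had 1054, 798, 1058 and 820 CPM and held 31.5, 25.1, 38.6 and 33.2% of its UMIs, more than all mesenchymal cells together, which held 9.30, 11.2, 6.81 and 2.63%. AT2-like cells had 15.2, 19.1, 9.21 and 7.06 CPM. At 1107 UMIs, 66.1, 53.7, 68.9 and 58.5% of AT1-like cells had a Fbln5 UMI (96.6, 87.6, 89.2 and 76.6% unthinned, at median depths of 7658, 3911, 3755 and 2534), against 2.83, 3.79, 2.01 and 1.28% of AT2-like cells at 2293 UMIs (9.6, 8.93, 3.85 and 2.33% unthinned). The AT1-like level was under 1.5-fold apart in both pairs, at -0.40 and -0.37, with the controls at 0.00.

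The other main sources of Fbln5 were endothelial. Arterial-like cells had 875, 1128, 766 and 417 CPM, venous-like cells 923, 672, 659 and 332 CPM and lymphatic-like cells 738, 605, 481 and 434 CPM. Hgf iPCKO was lower than its control in arterial-like (-0.88) and venous-like (-0.99) cells, and it had the lowest level of the 4 libraries in all 3 endothelial types. The Bdnf pair differed by 0.37 and -0.46 in arterial-like and venous-like cells. Among mesenchymal cells, adventitial fibroblast-like cells had 306, 373, 277 and 211 CPM. Smooth muscle-like cells had 287, 402, 190 and 32.5 CPM, the last from 3 UMIs.

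Ltbp4 encodes a latent TGF-beta binding protein that guides elastin onto microfibrils (chromosome 7, 27004086 to 27037117, minus strand, GRCm39). Adventitial fibroblast-like cells, where it was highest, had 1379, 1281, 1536 and 1457 CPM, with ratios of -0.11, -0.08 and 0.16 in the Bdnf pair, the Hgf pair and the controls. Myofibroblast-like cells had 716, 629, 773 and 635 CPM, arterial-like cells 734, 707, 1266 and 905 CPM and lymphatic-like cells 746, 631, 840 and 805 CPM. Smooth muscle-like cells had 315, 290, 554 and 651 CPM, where the controls were 1.76-fold apart. Ltbp4 passed 1.5-fold within a pair in 1 of the 8 mesenchymal comparisons, matrix fibroblast-like cells of the Hgf pair, with 35 UMIs in the mutant (-0.66, -1.21 to -0.16).

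Emilin1 encodes a glycoprotein at the border of elastin and microfibrils (chromosome 5, 31070717 to 31078622, plus strand, GRCm39) and had few UMIs. Matrix fibroblast-like cells had 85, 76.8, 88.9 and 58.0 CPM and lymphatic-like cells 57.0, 55.7, 108 and 104 CPM. These 2 types had the highest levels in each library. In adventitial fibroblast-like cells the Hgf mutant was lower, with 17.6 CPM from 10 UMIs against 64.2 CPM in the control (-1.87, -2.96 to -0.94), and the Bdnf pair had 50.0 and 46.6 CPM. Of the 10 members, Eln, Fbn1, Mfap4, Lox, Loxl1, Loxl2 and Ltbp4 overlap an exon of another gene on the opposite strand. Loxl2 also overlaps Mir6950 on its own strand. The STARsolo settings printed in the study name no strand option, and how strand was treated without one was not checked here.

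The captured cells that held each transcript changed with the composition of the libraries. Mesenchymal cells held 49.8, 48.9, 52.2 and 22.5% of all Eln UMIs, endothelial cells 22.4, 18.3, 26.5 and 40.9% and unassigned barcodes 25.3, 29.5, 19.1 and 34.1%. Myofibroblast-like cells held 10.1, 16.9, 0.971 and 9.43% of Eln UMIs, the low share of Hgf lox/lox coming with only 84 such cells. Matrix fibroblast-like cells held 28.9, 10.4, 27.6 and 5.80% of Mfap4 UMIs, lower in both mutants, in which these cells were also fewer. Shares of this kind describe the captured cells, after dissociation and depletion, and not the tissue.

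**Figure D5:**
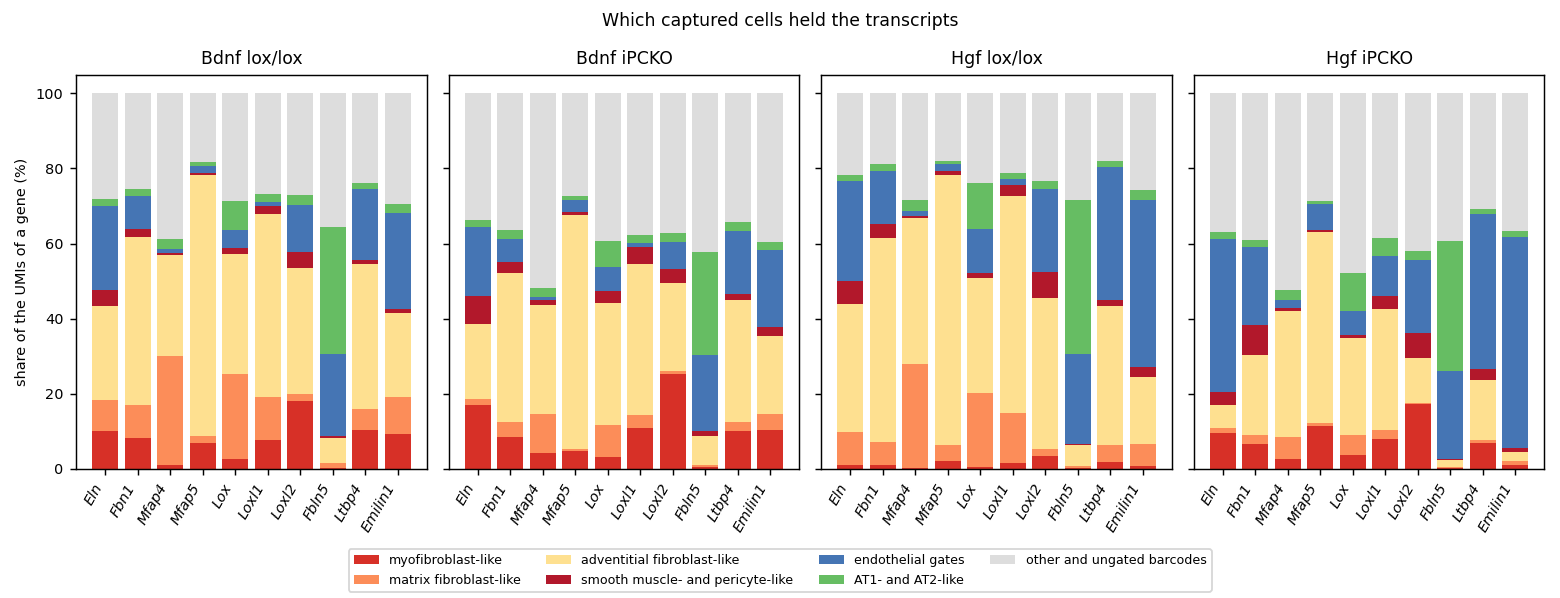
Share of the UMIs of each gene (vertical axis, %) by the cells that held them (colours), in the 4 libraries (panels), over all barcodes past the UMI minimum. Adventitial fibroblast-like cells hold most Mfap5 in every library (51.0 to 72.0%), and AT1-like with AT2-like cells together hold a larger part of Fbln5 than of any other member.

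Across 14 cell types, genes were ranked by the Pearson correlation of log2(CPM + 1) with Eln, taking the lowest of the 4 libraries among 14592 genes. The points of a library share its depth and free RNA, and the values are descriptive. The 5 nearest genes were Bgn (0.958), which encodes biglycan, Fstl1 (0.948), Fbn1 (0.908), Col5a1 (0.896) and P3h3 (0.888). Among the members, Ltbp4 ranked 7 (0.879), Loxl2 68 (0.781), Mfap5 77 (0.776), Lox 101 (0.752), Loxl1 133 (0.732), Emilin1 185 (0.699), Mfap4 678 (0.532) and Fbln5 1282 (0.398). Fbn1 was thus the member most like Eln across cell types and Fbln5 the least like it.

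Other genes of the elastic fibre, a list of 20, were read in the same cells. Counts in the 4 types are given in the order used above, and the shares of all genes higher and lower were 8.21 and 7.34%, 12.3 and 12.1%, 11.3 and 5.0%, and 11.7 and 13.4% in the Bdnf pair. In the Hgf pair they were 26.2 and 18.1%, 24.9 and 26.6%, 23.8 and 21.2%, and 25.9 and 21%, and these shares also stand beside the counts of the lists that follow. In the Bdnf pair, 3 of 18 with enough UMIs were higher and 2 lower in myofibroblast-like cells, 3 and 1 of 13 in matrix fibroblast-like, 2 and 0 of 19 in adventitial fibroblast-like and 1 and 1 of 13 in smooth muscle-like cells. Ltbp2, a latent TGF-beta binding protein, went from 12.1 CPM in Bdnf lox/lox to 53.4 CPM in Bdnf iPCKO among matrix fibroblast-like cells, and Fbn2, the fibrillin of early fibres, from 7.29 to 24.6 CPM among adventitial fibroblast-like cells. Dcn, which encodes decorin and was also a marker used to assign adventitial cells, went from 23.6 to 198 CPM among matrix fibroblast-like cells of this pair, whose adventitial markers were also higher in the mutant, and from 414 to 129 CPM among myofibroblast-like cells. Fbln2, a fibulin, had 2 and 25 UMIs in smooth muscle-like cells, 3.97 and 22.9 CPM (2.53, 0.52 to 5.65). The Hgf pair had 2 higher and 4 lower of 10, 1 and 6 of 10, 1 and 9 of 18 and 0 and 1 of 4 in the same order of types. Fbln1, encoding fibulin-1, was 213 and 29.0 CPM (91 and 2 UMIs) and Efemp1, encoding fibulin-3, 283 and 58.0 CPM (121 and 4 UMIs) in matrix fibroblast-like cells of Hgf lox/lox and Hgf iPCKO. Loxl3, a lysyl oxidase, had 1 and 20 UMIs in myofibroblast-like cells (2.79, 0.15 to 8.17). Its levels were 5.15 and 35.8 CPM, against 34.9 CPM in Bdnf lox/lox, so the Hgf control was the low library. Dcn was 46.8 and 324 CPM (20 and 22 UMIs) in matrix fibroblast-like cells and 345 and 173 CPM in myofibroblast-like cells.

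Genes of elastin breakdown, 14 proteases and inhibitors, had 0 higher and 1 lower of 9, 1 and 1 of 8, 0 and 1 of 8 and 0 and 1 of 8 in the Bdnf pair. Timp4 was 19.4 and 7.67 CPM in myofibroblast-like cells, Timp1 92.3 and 48.6 CPM in adventitial fibroblast-like cells, and Timp3 and the cathepsin inhibitor Cst3 1696 and 2794 CPM and 2649 and 1670 CPM in matrix fibroblast-like cells. The Hgf pair had 4 higher and 1 lower of 7, 3 and 0 of 6, 2 and 1 of 8 and 3 and 0 of 6. The cathepsin genes Ctsk (2 and 34 UMIs in myofibroblast-like cells, 2.56 with 0.60 to 5.66) and Ctsl (196 and 564 CPM in smooth muscle-like cells) were higher in Hgf iPCKO, as was Cst3 in myofibroblast-like cells (2345 and 6384 CPM). Ctsk was 10.3 and 60.8 CPM, against 45.4 CPM in Bdnf lox/lox, so the Hgf control was low for this gene. Timp3 differed in direction between types of this pair, lower in the mutant in adventitial fibroblast-like (3906 and 1727 CPM) and myofibroblast-like cells (1943 and 994 CPM) and higher in matrix fibroblast-like (1668 and 2668 CPM) and smooth muscle-like cells (1887 and 3222 CPM).

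Among 12 contractile and TGF-beta response genes, 3 of 12, 3 of 8, 2 of 12 and 2 of 12 were higher and 0 lower in the mutant of the Bdnf pair, against the 8.21, 12.3, 11.3 and 11.7% of all genes that were higher. Postn, which encodes the matrix protein periostin, was 12.4 and 45.5 CPM in myofibroblast-like cells. Acta2 and Myl9, which encode smooth muscle actin and a myosin light chain, were 23.6 and 95 CPM and 8.77 and 40.3 CPM in matrix fibroblast-like cells. Acta2 is itself a smooth muscle marker, and the summed smooth muscle and myofibroblast markers of these cells were higher in the mutant, as given with Mfap4. Their part in the values was not tested. The Hgf pair had 1 higher and 4 lower of 10, 1 and 2 of 6, 1 and 5 of 10 and 1 and 9 of 10, against 18.1, 26.6, 21.2 and 21% of all genes lower. The 9 lower in smooth muscle-like cells included Acta2, Myh11 and Cnn1, which were used to assign those cells and whose marker list summed to 22346 and 9492 CPM. Ccn2, encoding the growth factor CTGF, was 1042 and 195 CPM in smooth muscle-like cells. Myl9 was 217 and 67.9 CPM in myofibroblast-like cells, whereas Tgfbi, a TGF-beta-induced matrix protein and a myofibroblast marker here, was 41.7 and 228 CPM (7 and 21 UMIs) in smooth muscle-like cells. The summed myofibroblast markers of those cells were 1482 and 2191 CPM (8 and 9 of 9 with a UMI), and 4.62% of control and 17.0% of mutant cells lay in cluster 0, the cluster of most myofibroblast-like mutant cells. Their part in the Tgfbi value was not tested.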

How the data were processed

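According to the study's methods, the authors mapped the reads with STARsolo (STAR 2.7.10a) to GRCm39, with the cell filter of that step turned off, and divided reads that map to several genes by expectation maximization. The deposited values are thus estimated counts of UMIs, not normalized. The study names 2 different Gencode releases as annotation. The authors' later filters on barcodes, clusters and tests and the cortex libraries were not used here.

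Barcodes past the UMI minimum of 1500 (Bdnf) or 700 (Hgf) were assigned to a type that had 3 or more detected markers, if no other type of its lineage reached 0.7, and none of another lineage 0.5, of its relative marker level. Barcodes with markers of several lineages stayed unassigned, which was the treatment of doublets. UMIs were summed per library and type, with exact Poisson intervals for CPM, conditional exact intervals for log2 ratios and Clopper-Pearson intervals for shares (scipy 1.17.1), at 95% and for counting error only. Estimated counts were rounded where whole numbers were needed. No p-value was computed. Cells were thinned to 1 depth per type for the shares of cells with a UMI of a member, but not for the marker shares. Leiden clusters of the mesenchymal cells of a pair (scanpy 1.11.5, leidenalg 0.10.2) were made without the members and listed genes. The computation of ratios and intervals was checked on simulated Poisson counts with known changes. These hold no variation between libraries, so the check cannot show how far libraries of the same genotype would differ.

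The 10 members were named in every type, and of the other lists at most 4 genes per list and pair, by the size of the ratio among those past 1.5-fold. The values of 1 listed gene are not reported here. The 5 genes nearest to Eln were named by the lowest correlation of the 4 libraries. Members and lists were chosen with earlier results of these data known. The alternatives tried were median-of-ratios scaling, other UMI minimums, a mitochondrial filter, Scrublet, Leiden clusters in place of the assignment, subtraction of free RNA and other count filters. Sequences are from RefSeq, and positions from the Gencode annotation of GRCm39 in the reference used here.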

Additional observations from a re-analysis of the deposited data

Results flagged for a closer look

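In these results the 2 mutant libraries lay on opposite sides of their own controls, with intervals for counting error that did not include 0. Each pair has 1 library per genotype, so the difference between the pairs was not tested, and the pairs also differ in cluster, depth and cell number. Each value is the log2 ratio of the Hgf pair minus that of the Bdnf pair.

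Mfap4 in myofibroblast-like cells differed by -2.33, from ratios of 1.19 in the Bdnf pair and -1.14 in the Hgf pair (48 and 63 UMIs). Loxl1 in the same cells differed by -1.42, from 0.25 and -1.17. Its Bdnf levels in control and mutant were 147 and 217 CPM in cluster 0, 130 and 164 CPM in cluster 1 and 178 and 55.7 CPM in cluster 2, and Mfap4 was likewise lower in the mutant in cluster 2 alone. In adventitial fibroblast-like cells Eln differed by -1.24 (0.37 and -0.87), Mfap5 by -0.95 (0.07 and -0.88) and Fbln5 by -0.68 (0.29 and -0.39). The Bdnf side of the first of these was -0.36, 0.60 and -0.12 in the 3 clusters of those cells, and that of Mfap5 was -0.31, 0.13 and -0.51 and came to 0.0 with median-of-ratios scaling. Fbln5 in those clusters was 247 and 226, 387 and 507, and 342 and 362 CPM in control and mutant. Within the cluster that the Hgf libraries share, Mfap5 had a ratio of -0.12 (-0.40 to 0.17). Over all cells of that cluster, assigned or not, Fbln5 was 287 CPM (53 UMIs) in control and 232 CPM (166 UMIs) in mutant cells. The adventitial Fbln5 ratio was under 1.5-fold in both pairs. In smooth muscle-like cells Eln differed by -1.22 (0.40 and -0.82). Fbln5 there differed by -3.03 (0.48 and -2.55), with 32 and 3 UMIs in the Hgf pair.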

How the results depend on the processing

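Counts of members past 1.5-fold stayed within 1.5 times under every alternative run, except in smooth muscle-like cells. There the Bdnf count was 2 with a doubled UMI minimum (0 in the report), for which the share of all genes is not given here. The Hgf count was 1 at a minimum of 100 UMIs (5 at 20), where fewer genes are counted. Over all genes with at least 100 UMIs in these Hgf cells, 19.9% were higher and 25.4% lower. The median log2 ratio of the Hgf pair moved in myofibroblast-like cells from -0.28 to -0.70 with Leiden clusters in place of the assignment and to -0.61 with no filter on low counts. It moved in adventitial fibroblast-like cells from -0.78 to -0.57 with Leiden clusters and to -1.02 with median-of-ratios scaling, and in smooth muscle-like cells from -0.55 to -1.15 with Leiden clusters. Leiden clusters gave no value for matrix fibroblast-like cells of this pair, whose named cluster held 4 mutant cells. In the Bdnf pair the median of myofibroblast-like cells was 0.49 without the cluster of mostly mutant cells (0.27 with it), an alternative chosen after seeing the data. Single ratios that reversed were Emilin1 in matrix fibroblast-like cells of the Hgf pair, 0.09 with a doubled UMI minimum (-0.62 in the report, from 4 mutant UMIs), and Loxl2 in smooth muscle-like cells, -1.15 with Leiden clusters (0.72 in the report, from 21 and 19 UMIs). The cause was not tested. The Eln ratio of myofibroblast-like cells ranged from 0.97 to 1.47 in the Bdnf pair and from 1.38 to 1.76 in the Hgf pair. Leaving out Scrublet doublets or barcodes of high mitochondrial share moved no ratio beyond its counting interval. Median-of-ratios scaling moved 21 single ratios beyond their intervals and left 57 within. Leiden clusters moved 15, reversed 1 and left 52, and the doubled UMI minimum moved 9, reversed 1 and left 68. A minimum of 1000 UMIs and the subtraction of free RNA each moved 2 and left 76. No paired analysis was possible because each genotype has 1 library. Depth limits Emilin1, Fbln5, Mfap5 and Loxl2, each under 10 UMIs in at least 1 mesenchymal type of Hgf iPCKO.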
